A study of Mus musculus with 9 samples.

Results

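The cytochrome P450 enzymes of families 1 to 4 were followed in mouse liver by microarray, in mice that carried a human colon cancer in the wall of the cecum and in mice that did not. Members were all probe sets that the platform annotation assigned to exactly 1 gene whose symbol begins with Cyp1, Cyp2, Cyp3 or Cyp4 and a subfamily letter, which gave 58 probe sets of 49 genes among 22626 probe sets. A probe set is a group of array probes that read the same transcript, and a gene with several of them is represented here by the brightest. Of the 49 genes, 41 passed the filter on low intensity and were tested in 1 fit with all 9223 genes that passed it, and 8 lay under the filter. The platform holds 4 further probe sets annotated to several genes that include such a P450, and they were not used.

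Livers of 3 groups were compared, with 3 arrays in each. NT-Co stands for mice without tumour given vehicle, T-Co for tumour-bearing mice given vehicle, and T-TSU for tumour-bearing mice given TSU68, an oral inhibitor of receptor tyrosine kinases, at 400 mg/kg per day split over twice-daily oral doses. The hosts of the TK-4 tumour were male mice of strain BALB/c nu/nu, 6 weeks old at implantation, and treatment ran for 1 week from day 7 after it. BALB/c nu/nu mice have no thymus and therefore lack most T cells, while B cells, natural killer cells and phagocytes are present. For the NT-Co mice, strain, sex, age and any sham operation are not stated on their own, nor are the hour of collection and the feeding state of any group. Mice without tumour given TSU68 are not analysed here, so the drug was compared only among tumour-bearing mice. The labels number the samples without saying that each is a separate animal, so the spread behind each p-value may be technical.

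P450s are haem enzymes of the endoplasmic reticulum that insert an oxygen atom into their substrate with electrons from P450 oxidoreductase and cytochrome b5. Families 1 to 3 oxidise drugs, toxicants and steroids, and their genes are classic targets of the aryl hydrocarbon receptor (family 1), the constitutive androstane receptor CAR (Cyp2b) and the pregnane X receptor PXR (Cyp3a). Family 4 hydroxylates the far end of fatty acids and eicosanoids, and the Cyp4a genes are targets of the fatty acid receptor PPARalpha. Several mouse liver P450s differ between males and females under the control of growth hormone pulses, and many are known to fall in the inflamed liver.

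Of the 41 tested genes, 6 differed between tumour-bearing and tumour-free mice. Cyp2c39 and Cyp3a13 rose (4.88%; 3.59% of all genes tested), and Cyp2c23, Cyp4a12a, Cyp4f14 and Cyp4v3 fell (9.76%; 2.78% of all genes). The genes best known as major liver drug-metabolising P450s, Cyp1a2, Cyp2c29, Cyp2e1, Cyp3a11 and Cyp2d9, did not pass the test. None of the 41 passed the test between T-TSU and T-Co or between T-TSU and NT-Co. Over all genes, 0.0434% rose and 0.0108% fell in T-TSU against T-Co, and 2.07% and 1.57% in T-TSU against NT-Co. Values are linear array intensities, and differences are on the scale of log2(intensity + 7.92), tested with limma and adjusted by Benjamini-Hochberg over the 15838 probe sets that passed the filter, at a threshold of 0.05. On that scale a difference understates the change of a dim gene. Whole liver was measured, so fewer cells of a type and less RNA per cell cannot be told apart.

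**Figure D1:**
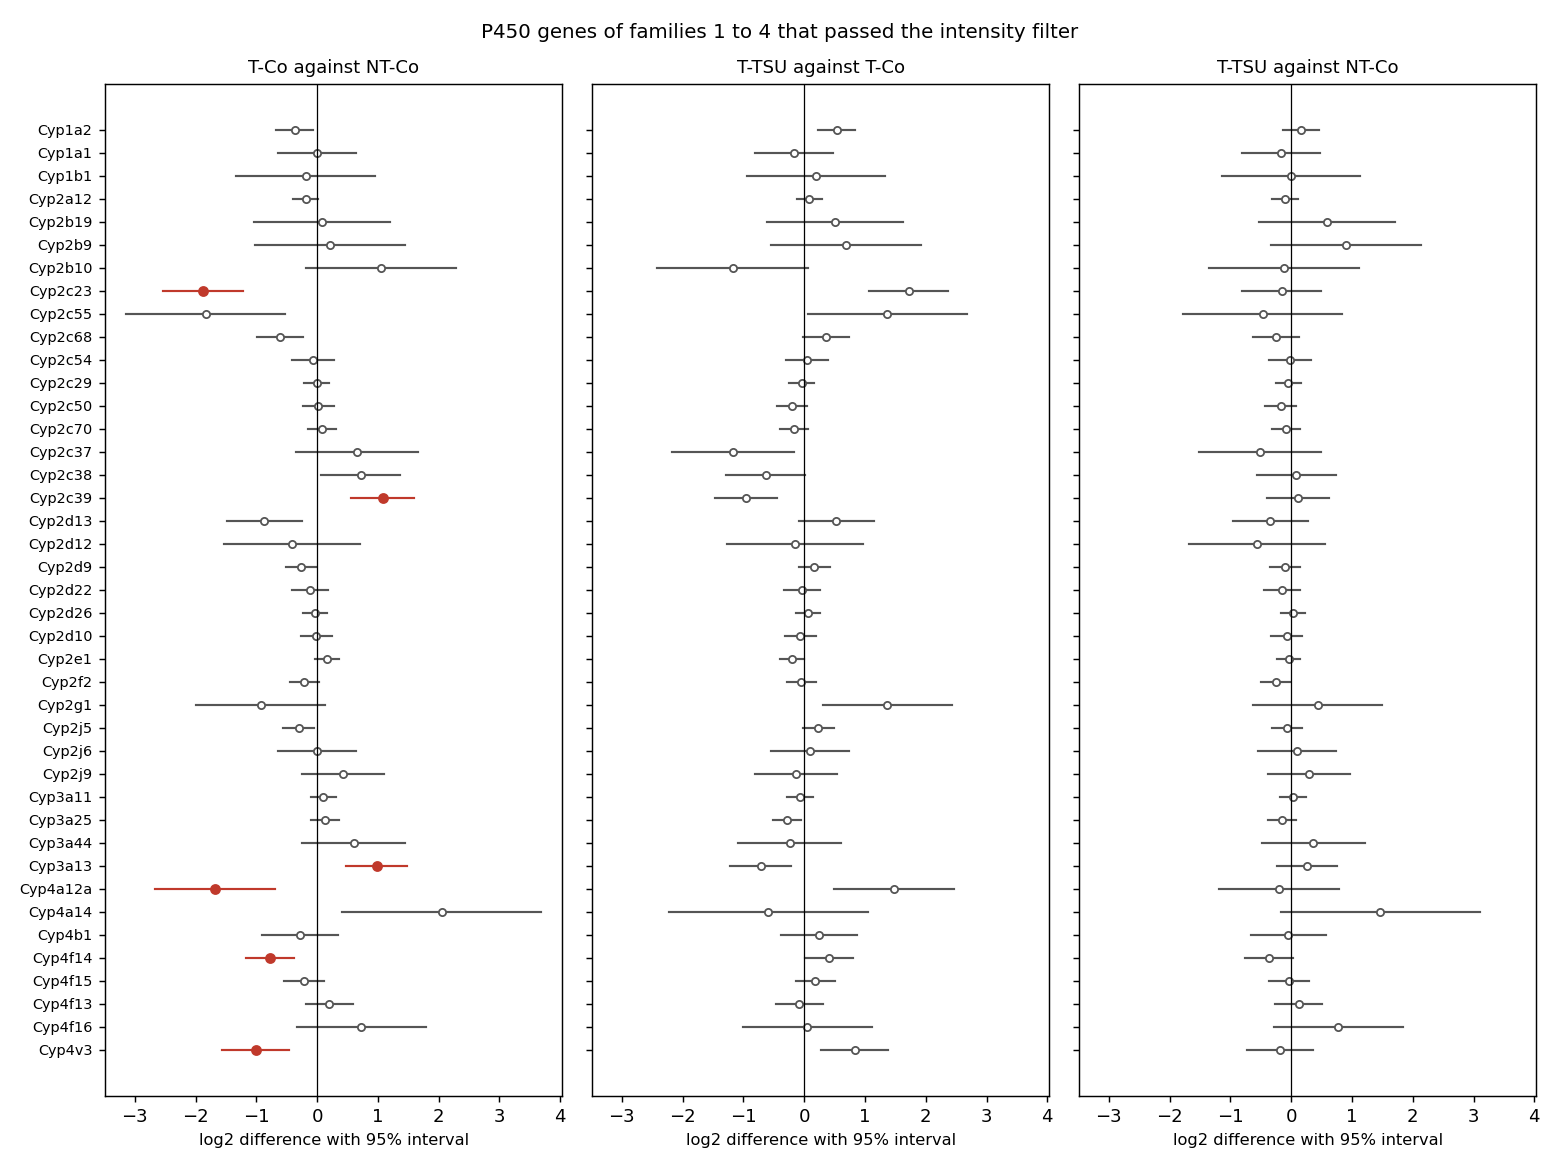
Log2 differences (x axis, with 95% intervals) of the 41 tested P450 genes (rows, ordered by subfamily) in the 3 comparisons. Filled red points passed the limma test, which was the case for 6 genes in T-Co against NT-Co and for 0 in the other comparisons.

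The closest view of a difference between relatives came from the Cyp2c cluster on chromosome 19. Sorted by lowest annotated position, Cyp2c29, Cyp2c39 and Cyp2c38 follow each other there in this order among the P450 genes. Cyp2c39 rose in T-Co, Cyp2c29 had a difference near 0, and Cyp2c38 lay between these. The 250 bases before the annotated start of each are shown because these 3 windows are close relatives whose genes gave different values. They are from RefSeq, assembly GRCm38.p6, a C57BL/6J genome and not the BALB/c of the mice, and are written 5′ to 3′ along the gene. Capitals mark the only match, on either strand, to the nuclear receptor core element AGGTCA.
Cyp2c29, chr19:39286835-39287084, plus strand: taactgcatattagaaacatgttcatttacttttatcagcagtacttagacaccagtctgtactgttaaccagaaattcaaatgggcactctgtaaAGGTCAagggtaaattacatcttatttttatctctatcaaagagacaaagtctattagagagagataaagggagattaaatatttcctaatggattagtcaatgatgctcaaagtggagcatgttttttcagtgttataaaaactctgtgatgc
Cyp2c39, chr19:39347096-39347345, plus strand: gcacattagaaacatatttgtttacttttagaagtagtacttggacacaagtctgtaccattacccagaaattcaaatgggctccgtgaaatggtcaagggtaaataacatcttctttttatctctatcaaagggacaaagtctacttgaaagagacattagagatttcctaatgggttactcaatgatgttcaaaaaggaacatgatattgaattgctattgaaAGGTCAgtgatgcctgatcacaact
Cyp2c38, chr19:39463076-39463325, minus strand: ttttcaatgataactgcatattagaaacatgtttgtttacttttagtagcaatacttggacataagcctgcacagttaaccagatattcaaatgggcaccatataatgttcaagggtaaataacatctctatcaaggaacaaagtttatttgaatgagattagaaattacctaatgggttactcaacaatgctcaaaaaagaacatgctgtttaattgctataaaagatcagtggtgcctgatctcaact

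In global alignments the windows of Cyp2c39 and Cyp2c29 were 74.1% identical, those of Cyp2c39 and Cyp2c38 75.8%, and those of Cyp2c29 and Cyp2c38 68.8%. The element was in the windows of Cyp2c29 and Cyp2c39, at different places, and these letters were not in the Cyp2c38 window. It occurred in 14% of all 32851 RefSeq mouse promoter windows of this length. The Cyp2c39 window shown is that of its first start. RefSeq gives Cyp2c39 a second start in the same cluster, with a window at chr19:39510572-39510821, beyond the Cyp2c38 window. This second window held no match. It was 68.1% identical to the Cyp2c29 window and 71% to the Cyp2c38 window. The other letters searched on both strands were the D-box TTATGTAA (0.819% of windows), the GAS element TTCNNNGAA of STAT factors (7.02%), the aryl hydrocarbon receptor core GCGTG (28.2%) and TTGCNNCAA of C/EBP type (1.74%), and none was in these 3 windows. Among the other genes that passed the test, the Cyp3a13 window held no match, that of Cyp4v3 held 1 GCGTG, and of the 4 starts of Cyp4f14 the window of 1 held GCGTG. Windows were found for 39 of the 49 genes. The called genes Cyp2c23 and Cyp4a12a had no window and were not searched. Such a match describes letters and is no evidence of binding.

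Cyp2c39, a P450 that hydroxylates retinoic acid, had intensities of 3560.3, 2532 and 3509 (NT-Co), 7886, 5481 and 6909 (T-Co), and 2941, 5207 and 2632 (T-TSU). Every T-Co array lay above every NT-Co and every T-TSU array. The NT-Co mean was 3200.4 ± 579 and the T-Co mean 6759 ± 1209.7 (SD, n = 3), a log2 difference of 1.08 ± 0.24 (SE), or 2.11-fold, with an adjusted p of 0.0188 in limma. The T-TSU array numbered 12 stood at 5207, near the lowest T-Co array, while the other T-TSU arrays lay in the range of NT-Co. Its difference between T-TSU and T-Co was -0.96 ± 0.24 (adjusted p = 0.189) and became -1.26 with an adjusted p of 0.0344 without that array. The T-Co rise lost its call without NT-Co 10 (adjusted p = 0.0675) and without T-Co 9 (0.0580).

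Cyp2c38, which metabolises arachidonic acid and is female-biased in liver, gave 2919.7, 3024 and 4529.9 (NT-Co), 5580.5, 7159.7 and 4448 (T-Co), and 3034, 6299.5 and 2509.6 (T-TSU). Groups overlapped, since NT-Co 11 exceeded T-Co 13. Its T-Co difference of 0.72 ± 0.30 had an adjusted p of 0.183, and its T-TSU difference from T-Co was -0.63 ± 0.30 (adjusted p = 0.493). Cyp2c29, an abundant liver drug-metabolising enzyme, gave 29648, 30958 and 32819 (NT-Co), 33278, 32131 and 27851 (T-Co), and 30685, 30983 and 28784 (T-TSU), with all 3 groups overlapping. Its T-Co difference was -0.01 with a 95% interval of -0.21 to 0.20. The difference between the responses of these genes was not itself tested.

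Cyp2c23, an arachidonic acid epoxygenase best known from kidney, had the largest fall of the 41 genes. It read 1145, 894 and 1241 (NT-Co), 426, 249 and 226 (T-Co), and 1498, 629 and 969 (T-TSU). All T-Co arrays lay under all others, with no overlap on either side. Group means were 1093 ± 179 for NT-Co, 300.4 ± 109 for T-Co and 1032 ± 438 for T-TSU (SD, n = 3). The T-Co difference of -1.88 ± 0.30, 3.68-fold lower, had an adjusted p of 0.00386 in limma and was called in all 19 alternative settings, with adjusted p from 0.00187 to 0.0300. In T-TSU against T-Co the difference was 1.72 ± 0.30 with an adjusted p of 0.0593, which missed the threshold. It passed in 3 of 19 settings, namely with a pseudocount of 50 (0.0487), without T-Co 9 (0.0490) and without T-TSU 12 (0.0322). The annotated gene lies apart from the other Cyp2c genes, at the end of the Cyp2c order on the chromosome. Its probe set carries a suffix that Affymetrix gives to probes shared by several transcripts. The brightest probe sets of Cyp4v3 and Cyp2b10, and another Cyp2b10 probe set, carry the same suffix.

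The remaining Cyp2c genes did not pass the test. Cyp2c68 read 9466, 8667 and 8605 (NT-Co), 6570.2, 5663 and 5343 (T-Co), and 8700.4, 5403 and 9049.6 (T-TSU), and the NT-Co and T-Co arrays did not overlap. Its T-Co difference was -0.61 ± 0.17 with an adjusted p of 0.0567, and it passed in 4 of 19 settings. Cyp2c55, which makes hydroxylated arachidonic acid and is inducible in gut and liver, read 177, 117 and 143 (NT-Co), 114, 32.5 and 7.83 (T-Co), and 144, 57.0 and 126 (T-TSU). T-Co 10 and T-Co 13, at 32.5 and 7.83, were under the filter level of 36.2, and T-Co 9 stood just under the lowest NT-Co array. The T-Co difference of -1.83 ± 0.60 had an adjusted p of 0.0924. Without T-Co 9 it was -2.59 with an adjusted p of 0.0127, but the 2 T-Co arrays left are those under the filter level, so that size is uncertain. Cyp2c50, Cyp2c54 and Cyp2c70 had T-Co differences of 0.02, -0.07 and 0.08, and Cyp2c37, whose arrays ranged more widely, had 0.66 ± 0.46 (adjusted p = 0.456). Over the 10 tested Cyp2c genes, 1 rose and 1 fell, with a median of 0.01. The Cyp2c genes are close copies of each other and probes can be shared between them, so the values of single Cyp2c genes may hold signal from their relatives.

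Of the 8 tested family 4 genes, Cyp4a12a, Cyp4v3 and Cyp4f14 fell, where 2.78% of all genes fell. The difference between families was not tested, and these calls held in 7, 13 and 14 of 19 settings. Cyp4a12a, a male-biased omega-hydroxylase that makes 20-HETE from arachidonic acid, gave 7812, 7274 and 8474 (NT-Co), 3603, 4574 and 879.9 (T-Co), and 8611, 5030.1 and 7355 (T-TSU). All T-Co arrays lay under all others, and T-Co 13 was far below T-Co 9 and T-Co 10. The fall was -1.68 ± 0.45, 3.20-fold, with an adjusted p of 0.0469. Over the settings its adjusted p ran from 0.0172 to 0.164. Without T-Co 13 the fall was -0.95 (adjusted p = 0.0172). Its T-TSU difference from T-Co was 1.48 ± 0.45 (adjusted p = 0.288). Cyp4a12a has a near-identical neighbour, Cyp4a12b, with no probe set of its own here.

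Cyp4v3, the mouse counterpart of the fatty acid hydroxylase mutated in Bietti crystalline dystrophy, read 6695, 6380.1 and 6441 (NT-Co), 4101, 4249.5 and 1910.4 (T-Co), and 6253, 4609 and 6537 (T-TSU). T-Co arrays again lay under all others, and T-Co 13 was the lowest. It fell by 2.02-fold (-1.01 ± 0.25, adjusted p = 0.0334), and its other probe set gave -0.87 ± 0.19 (adjusted p = 0.0193). Without T-Co 13 the fall was -0.64 (adjusted p = 0.0277). The call was lost without any 1 of the NT-Co arrays, and adjusted p ran from 0.0193 to 0.108 over the 19 settings.

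Cyp4f14, which inactivates leukotriene B4, gave 4479, 4547 and 5039 (NT-Co), 3358, 2949.8 and 2057 (T-Co), and 4035, 2936 and 4026 (T-TSU). T-Co lay under NT-Co on all arrays, while T-TSU 12, at 2936, fell within T-Co. The fall was -0.78 ± 0.18, or 1.71-fold, with an adjusted p of 0.0249, and it was lost without any 1 of the NT-Co arrays or T-Co 13 (0.0550). Its neighbours on chromosome 17, Cyp4f13 and Cyp4f15, had T-Co differences of 0.20 ± 0.18 (adjusted p = 0.560) and -0.22 ± 0.15 (0.437).

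**Figure D2:**
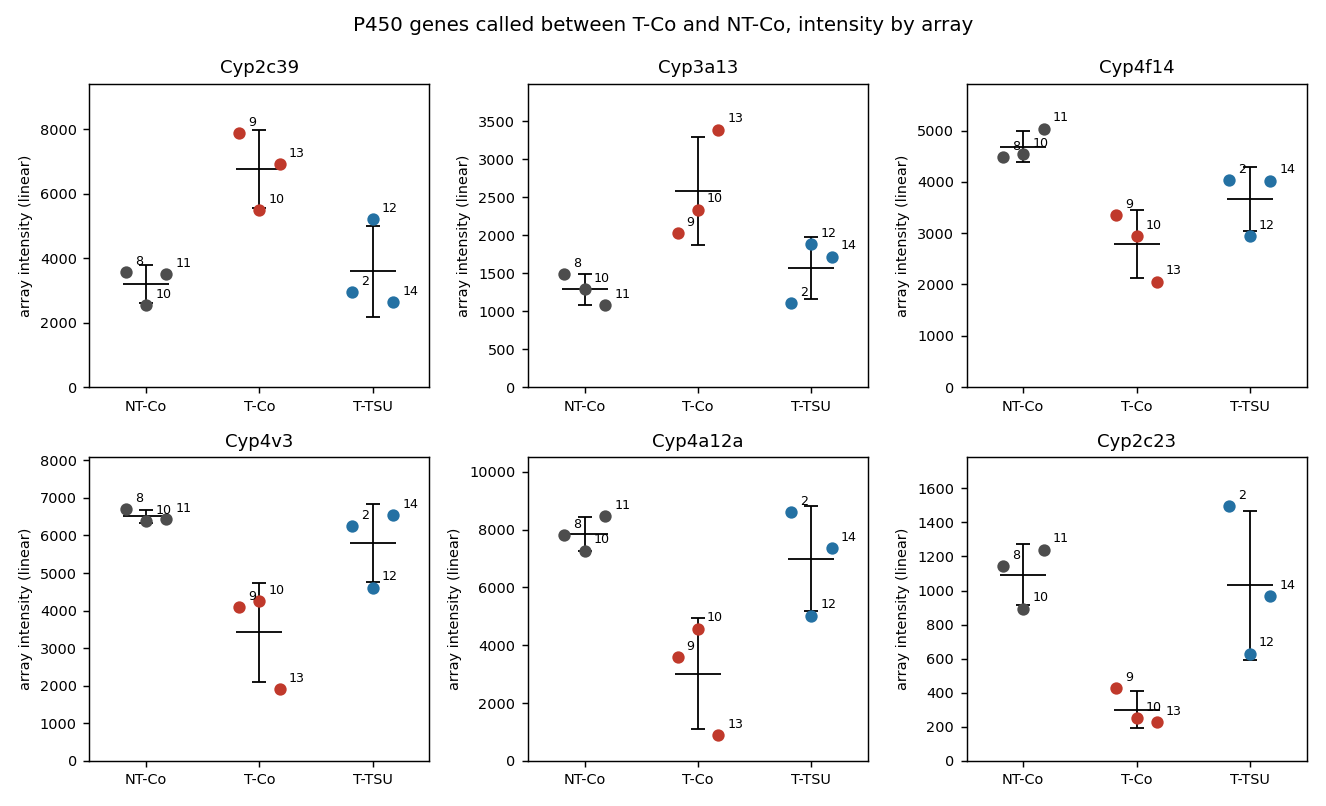
Array intensity (y axis, linear, from 0) of the 6 genes called between T-Co and NT-Co, by group. Points are single arrays with their sample numbers, and bars are the mean and SD of 3 arrays. In the Cyp2c23, Cyp4a12a and Cyp4v3 panels all T-Co points lie under all others, and T-TSU 12 is the T-TSU array nearest the T-Co mean in all 6 panels.

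Cyp4a14, a fatty acid omega-hydroxylase that PPARalpha ligands and fasting induce, had the highest T-Co difference of all members and a wide spread. It read 239, 167 and 449.954 (NT-Co), 2971, 1123 and 411 (T-Co), and 438, 2641 and 344 (T-TSU). T-Co 13 lay below NT-Co 11, so the groups overlapped, and T-TSU 12 stood near the highest T-Co array. The T-Co difference was 2.05 ± 0.75 (adjusted p = 0.131), and T-TSU differed from NT-Co by 1.46 ± 0.75 (0.364). The other family 4 genes, Cyp4b1 and Cyp4f16, had T-Co differences of -0.28 and 0.72. Cyp4a31 and Cyp4f18 were under the filter.

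Cyp3a13, a member of the main steroid- and drug-oxidising family, rose. Its intensities were 1491, 1293 and 1079 (NT-Co), 2024, 2334 and 3388 (T-Co), and 1107, 1881 and 1718 (T-TSU). T-Co lay above both other groups on all arrays. The rise was 0.98 ± 0.23, or 1.97-fold, with an adjusted p of 0.0247, and the T-TSU difference from T-Co was -0.72 ± 0.23 (0.309). The call was lost without NT-Co 10, NT-Co 11 or T-Co 13 (0.0730). Cyp3a11, the principal PXR-inducible Cyp3a of adult liver, gave 26299, 27347 and 31375 (NT-Co), 30775, 31758 and 28404 (T-Co), and 28995, 29651 and 27821 (T-TSU). All groups overlapped, and the T-Co difference was 0.10 with a 95% interval of -0.11 to 0.31. Cyp3a25 and Cyp3a44 had 0.13 ± 0.11 and 0.60 ± 0.39 (adjusted p = 0.513 and 0.410). Cyp3a16, a fetal and female form, lay under the filter in all groups, at 0.458 to 3.48.

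The CAR target Cyp2b10 was read by 3 probe sets, none of which passed the test. The brightest gave 1769, 1027 and 1069 (NT-Co), 1897, 1566 and 5908 (T-Co), and 475, 2768 and 1134 (T-TSU). T-Co 13 was far above the other T-Co arrays, and T-TSU 12 far above the other T-TSU arrays, in all 3 probe sets. The T-Co differences were 1.05 ± 0.57, 1.15 ± 0.56 and 1.21 ± 0.52 (adjusted p = 0.306, 0.247 and 0.197). Without T-Co 13 the first was 0.46 (0.697). Cyp2b9, a female-biased relative, gave 99.2, 56.7 and 199 (NT-Co), 161, 142 and 78.2 (T-Co), and 135, 567 and 105 (T-TSU), with T-TSU 12 standing apart. Its T-TSU difference from NT-Co was 0.90 ± 0.57 (0.484). Cyp2b19, best known from skin, had a T-Co difference of 0.08 ± 0.51, and Cyp2b13 was under the filter.

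**Figure D3:**
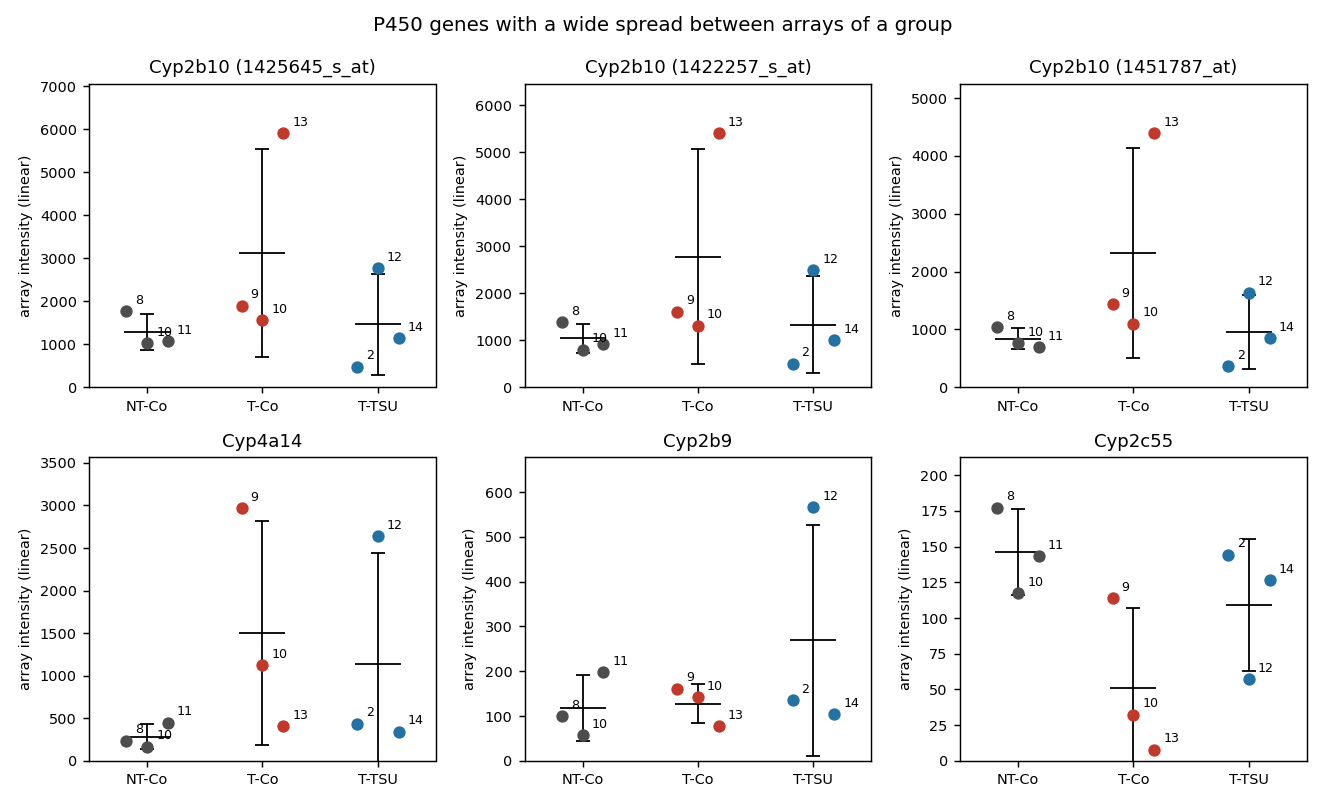
Array intensity (y axis, linear, from 0) by group for the 3 probe sets of Cyp2b10 and for Cyp4a14, Cyp2b9 and Cyp2c55. Points are arrays with their sample numbers, and bars are the mean and SD of 3 arrays, cut at 0 where the SD exceeds the mean. T-Co 13 is the highest T-Co array for Cyp2b10 and the lowest for Cyp4a14, Cyp2b9 and Cyp2c55.

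Family 1 holds the aryl hydrocarbon receptor targets. Cyp1a2, the caffeine-oxidising enzyme of liver, gave 15267, 12375 and 17226 (NT-Co), 11440.0, 12854 and 10236 (T-Co), and 18802, 15438 and 15711 (T-TSU). NT-Co and T-Co overlapped, and all T-TSU arrays lay above all T-Co arrays. Its difference was -0.37 ± 0.14 in T-Co against NT-Co (adjusted p = 0.138) and 0.53 ± 0.14 in T-TSU against T-Co (0.201). Cyp1a1, the receptor's most inducible target, gave 70.9, 84.2 and 82.1 (NT-Co), 72.9, 65.6 and 103 (T-Co), and 66.9, 71.8 and 70.1 (T-TSU). It stood at similar values in all groups, with T-Co and T-TSU differences of 0.00 ± 0.29 and -0.17 ± 0.29 and a 95% interval of -0.80 to 0.47 for T-TSU against T-Co. Cyp1b1, expressed mainly outside hepatocytes, was dim, with a T-Co difference of -0.19 ± 0.52. Of 3 tested genes of the same receptor's battery outside P450, 0 were called in any comparison.

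Cyp2d9, a male-biased steroid hydroxylase, gave 19006, 20809 and 21481 (NT-Co), 18655, 17602 and 14754 (T-Co), and 18025, 21169 and 18061 (T-TSU). Its T-Co arrays lay just under all NT-Co arrays, and its difference was -0.27 ± 0.11 (adjusted p = 0.188). All 6 tested Cyp2d genes had T-Co differences below 0, from -0.87 for Cyp2d13 to -0.01 for Cyp2d10, and 0 were called. Of all 9223 genes, 4763 were below 0, and the Cyp2d genes were read on the same arrays. Cyp2d13 read 1539.9, 799 and 1399 (NT-Co), 713, 873 and 445 (T-Co), and 1136, 999 and 737 (T-TSU), with NT-Co 10 inside the T-Co range, and had an adjusted p of 0.0902, or 0.0361 without NT-Co 10. Its other probe set gave -0.74 ± 0.25 (0.0965). Cyp2d22 and Cyp2d26 had -0.12 and -0.04, and the dim Cyp2d12 had -0.42 ± 0.51.

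Cyp2e1, which oxidises ethanol and acetaminophen, gave 31798, 32948 and 37339 (NT-Co), 37907, 38265 and 37599 (T-Co), and 33375, 31461 and 34011 (T-TSU). T-Co lay above both other groups on all arrays by a small margin. Its T-Co difference was 0.16 with a 95% interval of -0.04 to 0.36 (adjusted p = 0.330). These intensities approach the top of the scale, since the brightest probe set of any array read 43245 to 53321, and a flattening of differences there was not tested. Cyp2f2, which activates naphthalene and marks periportal hepatocytes, gave 23821, 23551 and 26700.2 (NT-Co), 22494, 22776 and 18786 (T-Co), and 21442, 18730.3 and 21819.6 (T-TSU). Both tumour-bearing groups lay under NT-Co on all arrays, by -0.21 ± 0.11 in T-Co (0.280) and -0.26 ± 0.11 in T-TSU (0.252). Cyp2a12, a testosterone and bile acid hydroxylase, had -0.19 ± 0.10 in T-Co (0.271).

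Cyp2g1, an enzyme of the olfactory mucosa, was dim in liver and read 226, 177 and 271 (NT-Co), 139, 239 and 40.2 (T-Co), and 488, 259 and 218 (T-TSU). T-Co 13 was the lowest of all and T-TSU 2 the highest. Neither the T-Co difference of -0.93 ± 0.49 (0.289) nor the T-TSU difference from T-Co of 1.37 ± 0.49 (0.350) passed.

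The Cyp2j genes make epoxides of arachidonic acid. Cyp2j5, the main form in kidney and liver, had probe sets that disagreed in call. The brightest read 9231, 10049.5 and 9386 (NT-Co), 8558, 8148 and 6651 (T-Co), and 9853, 8744 and 8755 (T-TSU), with T-Co under NT-Co and T-TSU on all arrays, and gave -0.30 ± 0.12 (adjusted p = 0.148). The dimmer one read 3785, 2646 and 3166 in NT-Co and 2305, 1954 and 1603 in T-Co, and passed with -0.71 ± 0.17 (0.0256). Both lay below 0. Cyp2j6 and Cyp2j9 had T-Co differences of -0.00 ± 0.30 and 0.43 ± 0.31. Cyp2j13, Cyp2c65, Cyp2d34 and Cyp2s1 complete the 8 genes under the filter.

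**Figure D4:**
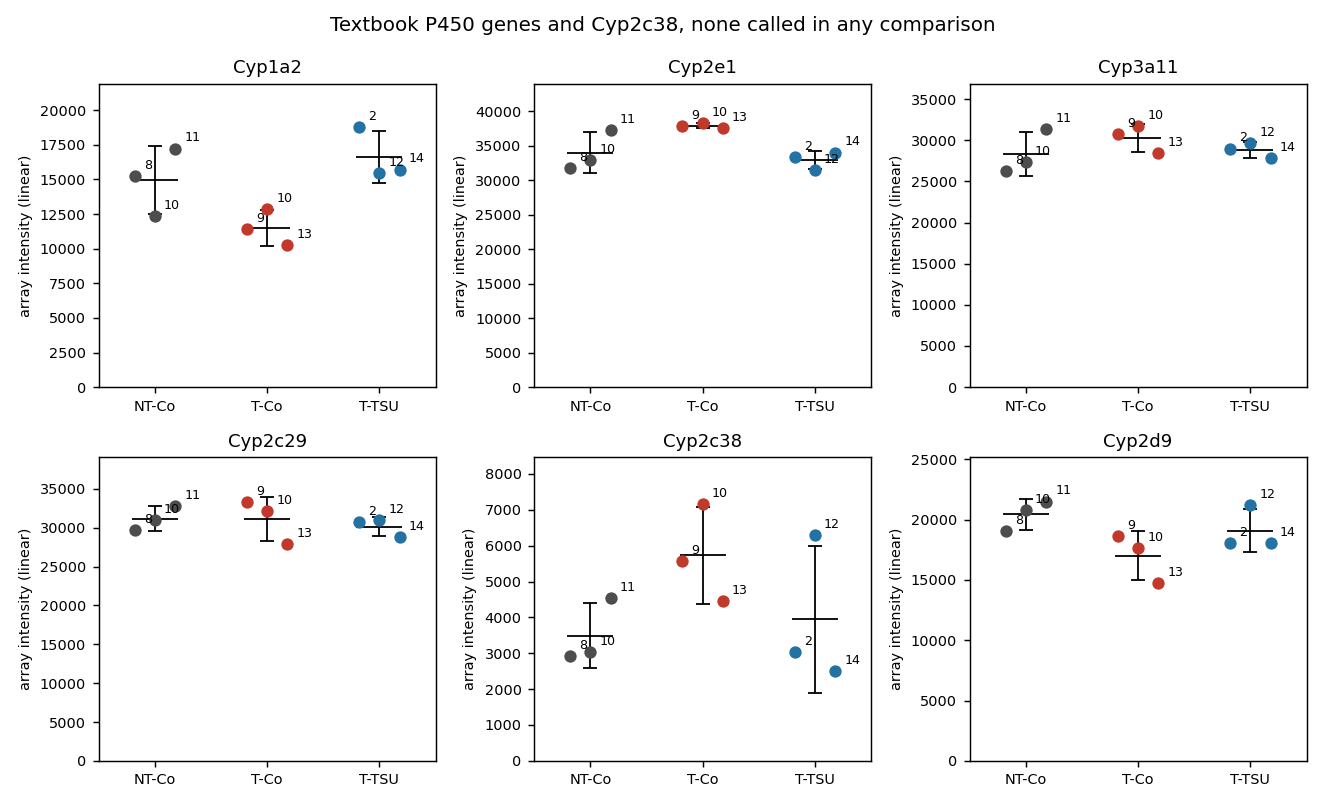
Array intensity (y axis, linear, from 0) by group for Cyp1a2, Cyp2e1, Cyp3a11, Cyp2c29, Cyp2c38 and Cyp2d9. Points are arrays with their sample numbers and bars the mean and SD of 3 arrays. T-TSU lies above T-Co on all arrays for Cyp1a2, while all groups overlap for Cyp3a11 and Cyp2c29.

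Counted over the members, 2 of 41 rose in T-Co against NT-Co (4.88%), where 3.59% of all 9223 genes tested rose, and 4 fell (9.76%), where 2.78% of all genes fell. At an unadjusted p under 0.05, limma gave 14 members (34.1%; 4 higher and 10 lower), against 21.9% of all genes. By size, 7 members (17.1%) differed by at least 2-fold, against 6.56% of all genes. By the moderated F test over 3 groups, 3 members passed (7.32%; Cyp2c23, Cyp2c39 and Cyp3a13, with adjusted p of 0.00481, 0.0289 and 0.0492), against 5.63% of all genes. T-Co arrays lay entirely above NT-Co for 4 members (9.76%; 13.0% of all genes) and entirely below for 10 (24.4%; 13.7% of all genes). The 4 were Cyp2c39, Cyp2e1, Cyp3a13 and Cyp3a25, and the 10 were Cyp2a12, Cyp2c23, Cyp2c55, Cyp2c68, Cyp2d9, Cyp2f2, Cyp2j5, Cyp4a12a, Cyp4f14 and Cyp4v3. Without NT-Co 8, 10 or 11 the falls numbered 1, 2 and 1, and without NT-Co 10 the rises numbered 0; without NT-Co 11, T-Co 9 or T-Co 13 there was 1 rise. The F test passed 1 member without any 1 NT-Co array and 6 without T-TSU 12. Members moved both ways, so their median T-Co difference was -0.01, beside -0.02 over all genes tested.

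The drug was compared between T-TSU and T-Co, which are both tumour-bearing. Of the 41 members, 0 were called higher and 0 lower, and the background was 0.0434% and 0.0108% of genes, that is 4 and 1 genes. At an unadjusted p under 0.05, limma gave 12 members (29.3%; 7 higher and 5 lower), against 11.6% of all genes. A difference of at least 2-fold was seen for 6 members (14.6%), against 3.56% of all genes. T-TSU arrays lay entirely above T-Co for 5 members (12.2%; 7.08% of all genes), namely Cyp1a2, Cyp2c23, Cyp2j5, Cyp4a12a and Cyp4v3. They lay entirely below for 4 (9.76%; 7.59% of all genes), namely Cyp2c39, Cyp2e1, Cyp3a13 and Cyp3a25. That 0 members passed does not show that the groups were alike. Without T-Co 9, 1 member was called higher (Cyp2c23), and without T-TSU 12, 1 was called higher (Cyp2c23) and 1 lower (Cyp2c39). Median differences were 0.05 for the members and 0.00 for all genes.

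For the 6 genes that passed between the first groups, the T-TSU differences from T-Co were 1.72 (Cyp2c23), 1.48 (Cyp4a12a), 0.83 (Cyp4v3), 0.41 (Cyp4f14), -0.72 (Cyp3a13) and -0.96 (Cyp2c39). Both comparisons use the same T-Co arrays, so an error in those arrays enters both with opposite sign, and the opposed signs are no independent observation. The T-TSU means of the same genes differed from NT-Co by -0.16, -0.20, -0.18, -0.37, 0.26 and 0.12 in the same order, with 95% intervals as wide as -1.19 to 0.79 for Cyp4a12a and as narrow as -0.76 to 0.03 for Cyp4f14.

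Between T-TSU and NT-Co, 0 members were called higher (2.07% of all genes) and 0 lower (1.57%). At an unadjusted p under 0.05, limma gave 1 member (2.44%), against 16.5% of all genes. At least 2-fold apart was 1 member, Cyp4a14 (2.44%; 4.49% of all genes). Arrays of T-TSU lay entirely above NT-Co for 0 members (11.5% of all genes) and entirely below for 3 (7.32%; 12.6% of all genes), namely Cyp2c70, Cyp2f2 and Cyp4f14. This comparison shares its NT-Co arrays with the first and its T-TSU arrays with the second.

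Grouped by the sex bias known from mouse liver, the 6 tested female-biased P450s (Cyp2b9, Cyp2b10, Cyp2c38, Cyp2c39, Cyp3a44 and Cyp4a14) all had T-Co differences above 0, with a median of 0.88, where 4460 of all 9223 genes were above 0. Of these 6, 1 was called (Cyp2c39), and NT-Co and T-Co overlapped for the other 5. The list held 13 genes, of which 8 were measured, and Cyp2b13 and Cyp3a16 lay under the filter. All 6 were read on the same arrays, so their signs are not independent. The sign of Cyp2b9 held in 18 of 19 settings. In T-TSU against T-Co, 5 of the 6 were below 0, with a median of -0.61 and 0 called. Of male-biased P450s only Cyp4a12a and Cyp2d9 were tested, both below 0 in T-Co, and Cyp4a12a was called. Of the 14 genes tested from the growth hormone axis and its sex-dependent effectors, 1 rose and 1 fell in T-Co. Over all genes tested, 3.59% rose and 2.78% fell. Trim24, a nuclear receptor cofactor, rose by 1.94 on the log2 scale (adjusted p = 0.000375), and the growth hormone receptor Ghr fell, with a difference of -0.84 (0.00963). In T-TSU against NT-Co, Trim24 was also called higher, by 1.38 (adjusted p = 0.00231 in limma), and 0 genes of this list were called lower.

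Among 18 tested receptors and factors that control P450 genes, 2 rose and 2 fell in T-Co. The shares over all genes tested were 3.59% and 2.78%. The PPAR coactivator Ppargc1a rose by 4.76 (adjusted p = 5.90e-05), from 5.65, 8.23 and 15.0 (NT-Co), all below the filter level of 36.2, to 349, 682 and 398 (T-Co). The liver forkhead factors Foxa1 and Foxa2 fell, with differences of -1.42 and -1.04 (adjusted p = 0.0174 and 0.00730), and Foxa3 rose by 0.74 (0.0316). CAR (Nr1i3), PXR (Nr1i2) and the aryl hydrocarbon receptor (Ahr) had T-Co differences of 0.41, 0.34 and 0.26 and did not pass (adjusted p = 0.0877, 0.328 and 0.367). Ppara, the receptor behind Cyp4a induction, had 0.67 (0.221) in T-Co and rose by 1.59 (0.0125) in T-TSU against NT-Co. In that comparison Ppargc1a and Foxa3 were also called higher, by 3.27 and 0.90 (adjusted p = 0.000497 and 0.0171 in limma).

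Targets of the same receptors outside families 1 to 4 also moved both ways in T-Co, where 3.59% of all genes rose and 2.78% fell. Of 16 tested CAR and PXR targets, 4 rose (Slco1a4, Abcc3, Sult1d1 and Abcb1a) and 3 fell (Gstm3, Gstm2 and Aldh1a7), from -1.81 for the glutathione transferase Gstm3 to 1.59 for the organic anion carrier Slco1a4 among those called. Of 17 tested PPARalpha targets, 1 rose and 3 fell, namely the carnitine transferase Cpt1a (0.83), the lipid droplet protein Plin2 (-1.33), the peroxisomal enzyme Ehhadh (-1.15) and the thioesterase Acot1 (-1.98). The median of the PPARalpha targets was -0.31. In T-TSU against NT-Co, 3 of the CAR and PXR targets rose (Abcc3, Abcb1a and Sult1d1) and 0 fell. Among the PPARalpha targets there, 2 rose (Acot3 and Cpt1a) and 1 fell (Plin2). The shares over all genes there were 2.07% higher and 1.57% lower. Of 10 tested P450s of other families, 2 rose, the steroid hydroxylase Cyp17a1 by 3.45 (0.00193) and the oxysterol hydroxylase Cyp39a1 by 2.21 (0.0150).

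Of the P450 machinery, 1 of 5 tested electron transfer and membrane partners fell in T-Co (2.78% of all genes fell). It was Cyb5b (-0.75, adjusted p = 0.0158), the cytochrome b5 of the outer mitochondrial membrane and not the form that serves P450s in the endoplasmic reticulum. That form, Cyb5a, had 0.03 (0.918). Of 11 tested genes of haem synthesis and breakdown, 1 fell, the second enzyme of haem synthesis, Alad (-1.17, adjusted p = 0.00328). Alas1, which sets the rate of haem synthesis, had 0.55 ± 0.28 (0.282). In T-TSU against T-Co, 0 members of any of these lists were called. Of all 9223 genes tested, only 4 were called higher and 1 lower there, so 0 in short lists says little.

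Other liver gene groups moved with the same contrast, and their part in the P450 values was not tested. Of 29 tested acute phase and inflammatory genes, 11 rose in T-Co and 0 fell, with a median of 0.57, among them Stat3 (1.28) and Cebpb (2.20), which are known to act on P450 genes. T-Co 13 was the highest T-Co array for 22 of the 29, and T-TSU 12 the highest T-TSU array for 21. Of 12 clock factors, 5 rose and 1 fell in T-Co, and the D-box factor Dbp read 97.4, 68.1 and 81.1 (NT-Co), 1263, 2465 and 158 (T-Co), and 4343, 1466 and 1652 (T-TSU). T-Co 13 thus stood nearest NT-Co for Dbp. In T-TSU against NT-Co, 7 clock factors rose and 2 fell, and 3 acute phase genes rose (Stat3, Il6ra and Cebpb). Of all genes, 2.07% rose and 1.57% fell in that comparison. The acute phase genes had a median of 0.04 there, with 16 above 0 and 13 below. In T-TSU against T-Co their median was -0.45, with 1 above 0 and 28 below, and 0 were called. The clock factors had a median of 1.10 in T-TSU against NT-Co and of 0.32 in T-TSU against T-Co. Of 13 periportal markers outside P450, 4 rose in T-Co (Pck1, Asl, Arg1 and Cps1), and of 13 pericentral markers, 2 fell (Lect2 and Tbx3). Of all genes, 3.59% rose and 2.78% fell. Both marker lists were mixed. Periportal markers had 9 T-Co differences above 0 and 4 below, with a median of 0.10. Pericentral markers had 4 above and 9 below, with a median of -0.35.

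Markers of the cells a liver sample can hold were summed per array. All 9 measured hepatocyte markers passed the filter, as the liver label requires. Their summed intensity ranged over 212444 to 233328 (NT-Co), 255693 to 266253 (T-Co) and 214096 to 238803 (T-TSU), with Cps1, Ahsg and Tat called higher in T-Co. The 11 macrophage markers summed to 8497 to 11677, 11203 to 17099 and 5075 to 11080, with Cd163 called higher in T-Co. T-Co 13 was the highest T-Co array for 9 of the 11 and T-TSU 12 the highest T-TSU array for 11. The stellate cell and fibroblast sum, over 10 measured markers of which Col1a1 was under the filter, was 7441 to 8265, 5876 to 6656 and 6736 to 7900, with Col3a1 and Lum called lower in T-Co. Neutrophil markers (8 measured; Camp and Cxcr2 under the filter) summed to 668 to 979, 937 to 2255 and 583 to 921, and endothelial markers (10 measured) to 2166 to 2951, 2725 to 4280 and 1880 to 2714, with Pecam1 called higher in T-Co. A sum of linear intensities depends mostly on its brightest markers, and single markers went both ways. Among tested markers, T-Co differences were above 0 for 7 and below 0 for 2 (hepatocyte). The same counts were 10 and 1 (macrophage), 2 and 7 (stellate cell and fibroblast), 4 and 2 (neutrophil), and 8 and 2 (endothelial). The part of these cells in the P450 values was not tested.

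Single arrays also stood apart among the P450s. T-Co 13 was the lowest T-Co array for 24 of the 41 members (58.5%), against 36.2% of all genes tested. T-TSU 12 was the T-TSU array nearest the T-Co mean for 21 members (51.2%), against 37.2% of all genes, and for all 6 called genes, a pattern noticed after the values were seen. Array medians ran from 107 to 119. The ratio of 3′ to 5′ probe sets of beta-actin, a sign of RNA length, had means of 2.72 ± 0.44 (NT-Co), 1.98 ± 0.11 (T-Co) and 2.02 ± 0.20 (T-TSU; SD, n = 3), while that of Gapdh was 0.765 ± 0.031, 0.765 ± 0.039 and 0.767 ± 0.075. Its part in the comparisons with NT-Co was not tested.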

How the data were processed

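Liver RNA (5 µg) was turned into biotin-labelled cRNA for single-colour Affymetrix 3′ arrays, per the labels' protocols. The authors deposited 1 linear intensity per probe set and array. The mean of each array, trimmed by 2% on both sides, was about 500.3, so these intensities had been scaled. The sources used here do not name the software that summarised the probes. No detection calls were used, and no array pair was identical.

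Control probe sets (64 of 22690) were left out. A pseudocount of 7.92, the 10th percentile of the values, was added before taking log2, and probe sets with a mean log2 under the 30th percentile (about 36.2) were left out. The 15838 remaining probe sets were fitted over the 9 arrays with a mean per group in limma 3.58.1 and R 4.3.3 (6 residual degrees of freedom, empirical Bayes moderation with an intensity trend, two-sided, Benjamini-Hochberg adjustment, threshold 0.05), and the procedure was tested on simulated data. Groups and numbers come from the sample titles. The number of arrays limits the precision.

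Members, gene lists and tests were chosen with earlier results of these data known. Full values go to genes called in any comparison, filled to 12 by the smallest F test p; shorter values go to textbook inducible P450s (Cyp2a5 and Cyp4a10 have no probe set of their own) and to the ends of each subfamily. From other lists called genes come first. Alternatives were the pseudocount, filter, normalization, variance model, probe set, groups fitted and each array left out. Promoter windows and gene order are from RefSeq, assembly GRCm38.p6.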

Additional observations from a re-analysis of the deposited data

How the results depend on the processing

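Over 19 alternative settings, the 6 called genes kept the sign of their T-Co difference, and Cyp2c23 was called lower in T-Co against NT-Co in all 19. Without an intensity trend in the variance, 0 P450 genes rose and 1 fell (Cyp2c23) in T-Co against NT-Co, and 1 passed the F test. With a pseudocount of 50, 1 rose in T-TSU against T-Co (Cyp2c23), and with the filter at the 50th percentile 5 passed the F test. Leaving out 1 array at a time gave 0 to 2 genes higher and 1 to 5 lower in T-Co against NT-Co, 0 to 1 higher and 0 to 1 lower in T-TSU against T-Co, 0 to 0 in T-TSU against NT-Co in either direction, and 1 to 6 by the F test. The lows of T-Co against NT-Co came without NT-Co arrays, and the single T-TSU against T-Co calls came without T-Co 9 (Cyp2c23) or T-TSU 12 (Cyp2c23 and Cyp2c39). The cause was not tested, beyond the smaller number of arrays. Cyp4a12a was called in 7 settings, Cyp4v3 in 13, Cyp4f14 in 14, Cyp3a13 in 15 and Cyp2c39 in 16 of 19. No paired analysis was made, since the sample titles number the samples without naming pairs. Dim members such as Cyp1b1, Cyp2b19 and Cyp2d12, with intervals over 2 wide on the log2 scale, could not show moderate differences.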
